A study of Mus musculus with 22 samples.

Results

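The genes described here handle iron in the liver: hepcidin (Hamp), its inducing ligand Bmp6, the transferrin receptors Tfr2 and Tfrc, transferrin (Trf), the ferritin subunits Fth1 and Ftl1, the exporter ferroportin (Slc40a1) and the importer Slc11a2. These 9 genes were taken by symbol from a table of 18716 rows, and all 9 were among the 12537 genes that passed the filter on low values, as was Hamp2, the neighbouring copy of hepcidin, which is given beside them. Messenger RNA was sequenced from 22 mouse liver libraries, all labelled Fah-/-, a genotype without the fumarylacetoacetate hydrolase that completes tyrosine breakdown. The YC group (7 libraries) came from mice that had received td-Hepatocytes, a cell name the labels do not spell out, and were given YC, a compound known here by its code name, up to day 28 after the drug NTBC was withdrawn. The vehicle group (8 libraries) had the same transplantation and withdrawal and was given vehicle to day 28. The D0 group (7 libraries) was sampled at day 0 and is labelled as normal liver, with no transplantation stated. NTBC blocks tyrosine breakdown upstream of the missing enzyme and so protects these livers. The day 28 livers can hold both host and transplanted cells, in shares the labels do not give. The labels do not tie each library to its own animal, so the p-values rest on the spread among samples, and part of that spread may be technical. The design text states that livers were compared in a study of how YC acts on transplanted hepatocytes.

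Iron in blood is carried by transferrin, and cells take it up through the transferrin receptor encoded by Tfrc. Inside the cell it is stored in ferritin, a shell of heavy (Fth1) and light (Ftl1) chains, and it leaves through ferroportin. Hepcidin is a peptide hormone made by hepatocytes that binds ferroportin and causes its removal from the cell surface. Its transcription is driven by BMP6 from liver endothelial cells through SMAD proteins, by iron sensing through HFE, hemojuvelin and TFR2, and by interleukin 6 through STAT3. The mRNAs of several iron genes are further controlled by iron regulatory proteins, which bind a hairpin called the iron-responsive element (IRE). Binding in the 5′ UTR blocks translation, and binding in the 3′ UTR stabilises the mRNA.

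The hairpins are shown because they give the place of the canonical element in the members that hold it. Elements of other forms, such as that known in the 3′ UTR of an Slc11a2 isoform, are not found by this search. In GENCODE M21 transcripts (GRCm38, the same assembly as mm10), a search for the loop CAGTG followed by A, C or T, between stems of 5 paired bases with an unpaired C below the upper stem, found matches in 4 of the 9 members and in 123 of 21877 genes (0.562%). Capitals mark the loop, and each sequence is given 5′ to 3′ on the strand of its gene.
Fth1, 5′ UTR, chr19:9982733-9982759, plus strand: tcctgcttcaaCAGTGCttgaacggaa
Ftl1, 5′ UTR, chr7:45459780-45459806, minus strand: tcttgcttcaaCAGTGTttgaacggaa
Slc40a1, 5′ UTR, chr1:45925466-45925492, minus strand: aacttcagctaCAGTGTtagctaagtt
Tfrc site 1, 3′ UTR, chr16:32631220-32631246, plus strand: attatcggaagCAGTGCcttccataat
Tfrc site 2, 3′ UTR, chr16:32631599-32631625, plus strand: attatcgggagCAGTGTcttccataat
Tfrc site 3, 3′ UTR, chr16:32631664-32631690, plus strand: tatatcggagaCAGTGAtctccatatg
Tfrc site 4, 3′ UTR, chr16:32631711-32631737, plus strand: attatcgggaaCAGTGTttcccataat
No match to this pattern was found in the UTRs of Slc11a2, Hamp, Hamp2, Trf, Tfr2 or Bmp6, which says only that these letters are not there.

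The sequences just upstream of the RefSeq starts of the hepcidin copies are shown because Hamp and Hamp2 differed in level between the groups. They come from RefSeq (GRCm38.p6) and cover 140 bases up to the start annotated there. For Hamp2 the RefSeq and GENCODE starts differ. Its window lies inside the GENCODE span of the gene (chr7:30922372-30924681), so it is upstream of the RefSeq start only. The motifs GGCGCC, known as a BMP-responsive sequence, and TTCNNNGAA, the STAT consensus, are in capitals.
Hamp, chr7:30944030-30944169, minus strand: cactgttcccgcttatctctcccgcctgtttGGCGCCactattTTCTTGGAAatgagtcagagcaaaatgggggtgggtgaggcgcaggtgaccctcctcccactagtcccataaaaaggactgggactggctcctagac
Hamp2, chr7:30924182-30924321, minus strand: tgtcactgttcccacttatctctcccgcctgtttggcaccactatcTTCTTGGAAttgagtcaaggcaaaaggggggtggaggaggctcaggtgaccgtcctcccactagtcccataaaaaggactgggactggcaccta
The windows were identical at 125 of 143 aligned positions (87.41%). The Hamp window held both motifs and the Hamp2 window held TTCNNNGAA alone. Both motifs are their own reverse complement, so 1 search covers both strands. Over 32851 RefSeq promoters read 250 bases upstream, 9.586% held GGCGCC and 7.02% held TTCNNNGAA. A match is a description of letters, not of a bound site.

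Several libraries stood apart. Fah, the gene named in the genotype, measured 31.5 to 407 RPKM in YC libraries and 271 to 542 RPKM in vehicle libraries, against 21.1 to 38.7 RPKM in D0 libraries. Every D0 library thus held some Fah signal under the label Fah-/-, and its source was not tested. RPKM, the unit deposited by the authors, scales reads to gene length and library size. Of the YC libraries, YC 6 and YC 7 had 41.3 and 31.5 RPKM of Fah, near the D0 levels. YC 1 and YC 2, at 105 and 128 RPKM, also lay below every vehicle library, while YC 3, YC 4 and YC 5 lay inside the vehicle range. Mean RPKM of 4 Y-linked genes was above 1 in 3 of 7 YC libraries, 8 of 8 vehicle libraries and 0 of 7 D0 libraries, so this signal and the group cannot be told apart for vehicle against D0. YC 6 and YC 7 were also low in hepatocyte markers, with a summed level of 32248 and 31641 RPKM. Over each group the 6 hepatocyte markers summed to 31641 to 56636 RPKM in YC libraries, 56926 to 89275 RPKM in vehicle libraries and 44823 to 62829 RPKM in D0 libraries. The single markers did not all follow the sum. In the fit described below, 1 was called higher and 3 lower in YC against vehicle livers (median log2 fold change -0.26). In YC against D0 livers 2 were called higher and 2 lower (median 0.19), and in vehicle against D0 livers 2 higher and 0 lower (median 0.46). Vehicle 1 stood out in Tfrc and ferritin. Estimated depth was 50250000 to 82400000 reads or fragments in YC libraries, 50800000 to 71850000 in vehicle libraries and 51000000 to 66100000 in D0 libraries, which puts at least 510 behind each Bmp6 value and at least 1280 behind each Tfrc value.

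Values were compared as log2(RPKM + 0.5) with limma across all 12537 genes, and a gene was called at a Benjamini-Hochberg adjusted p under 0.05. In YC against vehicle livers 3 of the 9 genes were called, Tfrc, Slc11a2 and Bmp6, all higher, where 50.7% of all genes were called (44.6% higher, 6.14% lower). In vehicle against D0 livers 1 gene was higher, Hamp, and 2 were lower, Tfrc and Slc11a2, where 58.1% of all genes were called (28.2% higher, 29.9% lower). In YC against D0 livers Bmp6 was higher and Tfrc lower, where 53.4% of all genes were called (41.2% higher, 12.3% lower). The share of the 9 genes called was therefore below that of all genes in each comparison, and no statement about iron genes as a class is made from it. The median log2 fold change of the 9 was -0.07 in YC against vehicle, -0.11 in vehicle against D0 and -0.14 in YC against D0, beside 0.31, 0.0049 and 0.25 over all genes. The vehicle libraries serve in the first 2 comparisons, so opposite signs there are not independent of each other. With median-ratio scaling the median of all genes in YC against vehicle was 0.01, a shift of the whole table that bears on small changes below, and the share of calls that were higher was 52.1% in place of 87.9%. The same share in YC against D0 was 47.5% in place of 77.1%.

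**Figure D1:**
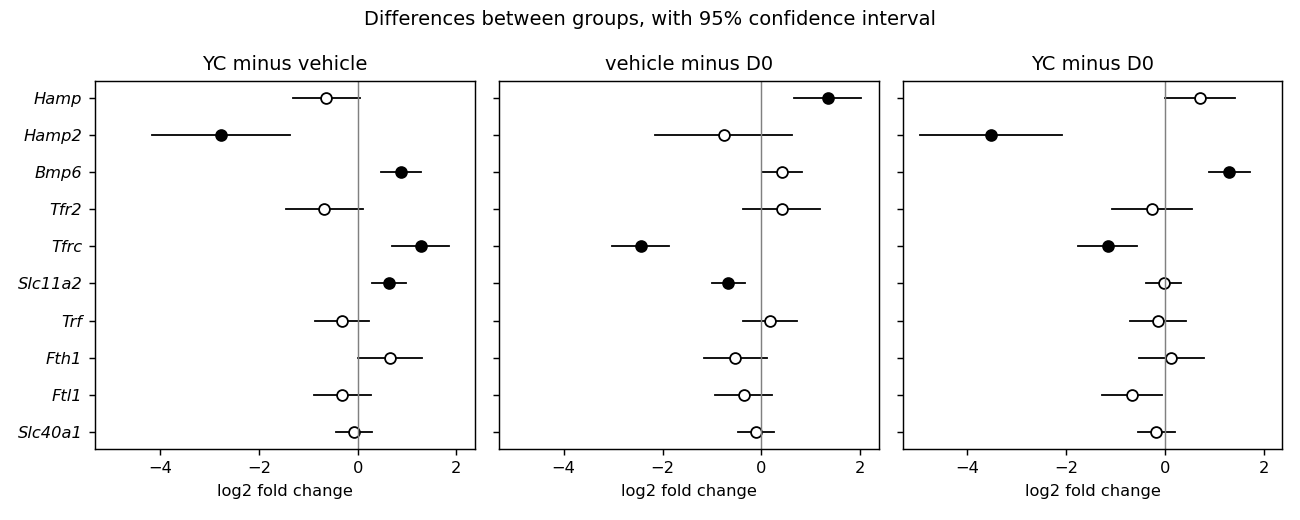
Log2 fold change (x axis, tested on log2(RPKM + 0.5)) of the 9 iron genes and Hamp2 (rows) in 3 comparisons; lines are 95% confidence intervals and filled points are genes called at an adjusted p under 0.05. Tfrc lies at 1.28 in YC minus vehicle, at -2.44 in vehicle minus D0 and at -1.17 in YC minus D0.

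Hamp (GRCm38 chr7:30942368-30944032) encodes hepcidin, the hormone that limits iron release. Its lowest, median and highest levels were 723, 1011 and 2518 RPKM in YC libraries. They were 1158, 2103 and 2868 RPKM in vehicle libraries, and 295, 836 and 1580 RPKM in D0 libraries. Vehicle libraries were the highest, and 5 of 8 lay above every D0 library, although the ranges overlapped. Hamp was higher in vehicle than in D0 livers by 1.34 on the log2 scale (SE 0.33, limma adjusted p = 0.0015). In YC against vehicle livers the log2 fold change was -0.63 (SE 0.33, limma adjusted p = 0.11) and was not called. The YC libraries fell into 2 levels: YC 6 and YC 7 had 2178 and 2518 RPKM, and the other 5 had 723 to 1418 RPKM. Without YC 6 and YC 7 the log2 fold change against vehicle was -1.0 (limma adjusted p = 0.014), and with median-ratio scaling of all libraries it was -0.98 (limma adjusted p = 0.025). Against D0, YC livers were at 0.71 (SE 0.34, limma adjusted p = 0.085), and without YC 6 and YC 7 at 0.34 (limma adjusted p = 0.41). That difference was called with quantile normalization (0.84, limma adjusted p = 0.027), with the replicate number as a block (0.71, limma adjusted p = 0.043) and when D0 3 was left out (0.89, limma adjusted p = 0.032).

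Hamp2 (chr7:30922372-30924681) lies beside Hamp and encodes a hepcidin-like peptide whose role in iron balance is less clear. Its levels were 14.5, 65.0 and 353 RPKM in YC libraries (lowest, median, highest). They were 122, 556 and 1289 RPKM in vehicle libraries, and 342, 894 and 1422 RPKM in D0 libraries. YC 1, YC 2, YC 6 and YC 7 lay below every vehicle library, as they did in Fah, and YC 4 alone reached into the D0 range. Hamp2 was lower in YC than in vehicle livers, at -2.76 on the log2 scale (SE 0.67, limma adjusted p = 0.0019). It was also lower in YC than in D0 livers, at -3.53 (SE 0.69, limma adjusted p = 0.00021). Vehicle against D0 gave -0.77 (SE 0.67, limma adjusted p = 0.34). The transcripts of Hamp and Hamp2 are identical at 388 of 420 aligned positions (92.38%), so reads that fit either gene may be counted for the wrong copy, and both overlap Gm44662 on the other strand.

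Bmp6 (chr13:38345107-38500302), the ligand that drives hepcidin transcription, was higher in YC livers than in both other groups. It measured 5.55, 11.8 and 16.7 RPKM in YC libraries (lowest, median, highest). It measured 4.16, 6.19 and 7.99 RPKM in vehicle libraries, and 2.77, 4.64 and 5.77 RPKM in D0 libraries. All YC libraries but YC 4 lay above every vehicle and D0 library. Bmp6 was higher in YC than in vehicle livers by 0.88 on the log2 scale (SE 0.19, limma adjusted p = 0.00076), and higher than in D0 livers by 1.29 (SE 0.20, limma adjusted p = 1e-05). Leaving out YC 6 and YC 7, median-ratio scaling and every other setting tried kept both calls. Against D0, vehicle livers were at 0.41 (SE 0.19, limma adjusted p = 0.073), which was called when vehicle 1 was left out (0.47, limma adjusted p = 0.044). This difference stayed uncalled in 18 of 22 fits with a single library left out and in 6 of 13 other settings. The rest called it higher, and over those 13 it was 0.32 to 0.50. Sinusoidal endothelium, the main source of BMP6, had 9 markers that summed to 177 to 295 RPKM in YC libraries, 193 to 350 RPKM in vehicle libraries and 143 to 261 RPKM in D0 libraries, and their part in the result was not tested. In bulk liver, fewer cells of a type and less RNA per cell cannot be told apart. Bmp6 overlaps Txndc5 on the other strand, and reads of the pair cannot be told apart unless counting used strand, which no source here states.

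Tfr2 (chr5:137569840-137587481), the receptor that senses transferrin-bound iron in hepatocytes, was not called in any comparison with all libraries and RPKM as deposited in 1 model. It measured 13.1, 88.4 and 145 RPKM in YC libraries, 71.0, 99.8 and 131 RPKM in vehicle libraries and 58.3, 72.5 and 85.0 RPKM in D0 libraries (lowest, median, highest). The libraries YC 6 and YC 7, at 17.1 and 13.1 RPKM, lay below every other library. The log2 fold change in YC against vehicle was -0.67 (SE 0.38, limma adjusted p = 0.14), and without YC 6 and YC 7 it was 0.11 (limma adjusted p = 0.56). With single libraries left out it was -0.88 to -0.32, and 21 of 22 such fits left it uncalled (smallest limma adjusted p = 0.049). Of 14 other settings, 11 left it uncalled with the same sign, and the rest turned its sign or called it lower. Over these 14 it reached -1.02, with a smallest limma adjusted p of 0.049. Against D0, YC livers were at -0.26 with all libraries (limma adjusted p = 0.59) and 0.52 without YC 6 and YC 7, where it was called (limma adjusted p = 0.0086). Vehicle against D0 gave 0.41 (SE 0.38, limma adjusted p = 0.36), which was called with only those groups in the fit (0.41, limma adjusted p = 0.011) and without YC 6 and YC 7 (0.41, limma adjusted p = 0.016).

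**Figure D2:**
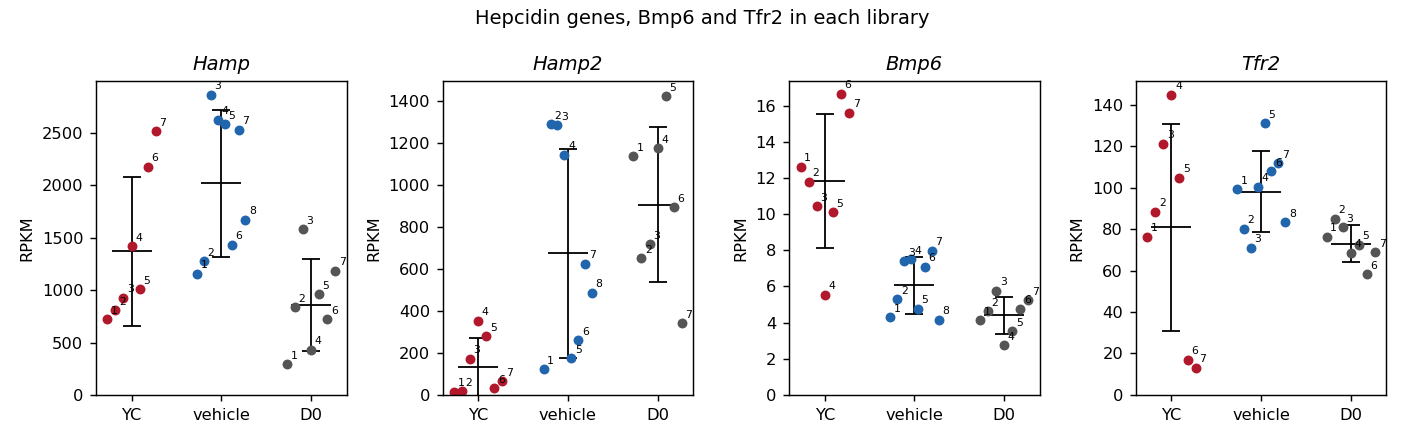
RPKM (y axis) of Hamp, Hamp2, Bmp6 and Tfr2 in each library of the YC (red, n = 7), vehicle (blue, n = 8) and D0 (grey, n = 7) groups; points are libraries with their replicate numbers, and bars are the mean ± SD. YC 6 and YC 7 are the highest YC libraries in Hamp and Bmp6 and the lowest in Tfr2.

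Tfrc (chr16:32608920-32632794), the receptor that brings transferrin-bound iron into cells, differed in all 3 comparisons. It measured 17.5, 23.8 and 32.9 RPKM in YC libraries (lowest, median, highest). It measured 3.65, 8.94 and 35.4 RPKM in vehicle libraries, and 37.6, 54.4 and 64.8 RPKM in D0 libraries. Both day 28 groups lay below every D0 library. Within day 28, vehicle 1 at 35.4 RPKM lay above all YC libraries, and the other 7 vehicle libraries, at most 11.03 RPKM, lay below all of them. Tfrc was higher in YC than in vehicle livers by 1.28 on the log2 scale (SE 0.28, limma adjusted p = 0.00066). It was lower in vehicle than in D0 livers at -2.44 (SE 0.28, limma adjusted p = 2e-07) and lower in YC than in D0 livers at -1.17 (SE 0.29, limma adjusted p = 0.0015). The ranges of the 2 groups did not overlap for 22.9% of all genes in vehicle against D0 (11.7% lower) and for 23.6% in YC against D0 (4.17% lower). Restricted to libraries with Y-linked signal (3 YC, 8 vehicle), Tfrc was 1.13 higher in YC with a limma adjusted p of 0.055. Tfrc carries the 4 hairpins printed above. Erythroid precursors also make this receptor at high levels: the 13 erythroid markers in the table summed to 6.11 to 478 RPKM in YC libraries, 65.9 to 1267 RPKM in vehicle libraries and 27.6 to 137 RPKM in D0 libraries, and their part in the result was not tested. Vehicle 1, the highest of its group in Tfrc, had the lowest erythroid sum of its group. Kel, Rhag and Ermap stayed under 0.5 RPKM in every library.

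Slc11a2 (chr15:100387898-100425072), the importer DMT1 that moves iron out of endosomes, moved in the same directions as Tfrc between the first 2 pairs of groups. It measured 6.65, 12.1 and 14.3 RPKM in YC libraries, 4.31, 7.17 and 9.96 RPKM in vehicle libraries and 10.1, 11.5 and 12.2 RPKM in D0 libraries (lowest, median, highest). Of the YC libraries, YC 6 and YC 7 were inside the vehicle range, the other 5 YC libraries were above it, and the vehicle and D0 ranges did not overlap. Slc11a2 was higher in YC than in vehicle livers by 0.64 on the log2 scale (SE 0.16, limma adjusted p = 0.0026). That call was lost with median-ratio scaling (0.31, limma adjusted p = 0.14) and with quantile normalization (0.26, limma adjusted p = 0.20). It was lower in vehicle than in D0 livers at -0.67 (SE 0.16, limma adjusted p = 0.0013), a call kept under every setting tried. YC against D0 gave -0.03 (95% confidence interval -0.38 to 0.31, limma adjusted p = 0.88). Gm5475 overlaps it on the other strand.

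Trf (chr9:103204001-103230444), the plasma iron carrier made by hepatocytes, was among the most abundant members. It measured 1675, 6201 and 8519 RPKM in YC libraries, 4813, 6074 and 7690 RPKM in vehicle libraries and 3973, 5866 and 6646 RPKM in D0 libraries (lowest, median, highest). Both YC 6 and YC 7, at 2709 and 1675 RPKM, lay below all other libraries, as for Tfr2. It was not called in any comparison, and in YC against vehicle the log2 fold change was -0.31 (SE 0.26, limma adjusted p = 0.33) with all libraries and 0.18 (limma adjusted p = 0.29) without those 2. YC against D0 gave -0.14 with all libraries and, without those 2, 0.35, which was called (limma adjusted p = 0.045). Trf overlaps the protein-coding Gm20425 on the same strand, so use of strand would not separate their reads.

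The ferritin subunits were, with Trf, the most abundant of these mRNAs per length. Fth1 (chr19:9980598-9985098), the heavy chain with ferroxidase activity, measured 4058, 8103 and 16931 RPKM in YC libraries (lowest, median, highest). It measured 1956, 5243 and 7560 RPKM in vehicle libraries, and 5287, 8031 and 8933 RPKM in D0 libraries. YC 6 and YC 7, at 15557 and 16931 RPKM, lay above all others, and vehicle 1 lay below all others. The log2 fold change in YC against vehicle was 0.65 (SE 0.31, limma adjusted p = 0.083). It was 0.23 without YC 6 and YC 7 (limma adjusted p = 0.50) and 0.037 when vehicle 1 was left out as well (limma adjusted p = 0.90). With quantile normalization (1.36), with equal total RPKM per library (0.76), and when YC 4 (0.81) or YC 5 (0.79) was left out, it was called. Vehicle against D0 gave -0.53 (limma adjusted p = 0.15), and in YC against D0 it was 0.13 (limma adjusted p = 0.76), or -0.30 without YC 6 and YC 7 (limma adjusted p = 0.38).

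Ftl1 (chr7:45457944-45459884), the light chain that aids iron core formation, measured 5555, 6191 and 11460 RPKM in YC libraries. It measured 3013, 10376 and 13697 RPKM in vehicle libraries, and 7020, 12352 and 15008 RPKM in D0 libraries (lowest, median, highest). The 5 YC libraries other than YC 6 and YC 7 lay at 5555 to 6453 RPKM, below every D0 library. The log2 fold change in YC against vehicle was -0.31 (SE 0.28, limma adjusted p = 0.36), and without vehicle 1, YC 6 and YC 7 it was -0.76 and called (limma adjusted p = 0.005). YC against D0 gave -0.67 (SE 0.29, limma adjusted p = 0.054), and without YC 6 and YC 7 it was -0.91 and called (limma adjusted p = 0.012). It stayed uncalled in 17 of 22 fits with a single library left out and in 5 of 13 other settings. The rest called it lower, and over those 13 it was -1.02 to -0.58. Vehicle against D0 gave -0.36 (limma adjusted p = 0.28). Ferritin genes have near-identical pseudogenes, so their values are uncertain where reads could be shared. Ftl1 also overlaps Gm10252 on the other strand and the miRNA gene Gm22133 on the same strand. The 10 NRF2 target genes, a programme known to include ferritin among its wider targets, summed to 4096 to 14583 RPKM in YC libraries, 2313 to 10085 RPKM in vehicle libraries and 11286 to 16452 RPKM in D0 libraries. Gstm1 made up most of these sums, with means of 5857 RPKM in YC, 5103 RPKM in vehicle and 9749 RPKM in D0 livers. By gene, 9 of the 10 were called in YC against vehicle livers, all higher (median 1.28), and Gstm1 was not (0.26). Of the 10, 1 was higher and 9 lower in vehicle than in D0 livers (median -1.74), and 1 was higher and 6 lower in YC than in D0 livers (median -0.82). In YC against vehicle 7 were called with median-ratio scaling and 7 without YC 6 and YC 7, all higher. YC 6 and YC 7 had the highest sums of their group, and the part of these genes in the ferritin values was not tested.

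Slc40a1 (chr1:45908068-45926523), ferroportin, the exporter that hepcidin acts on, was not called in any comparison. It measured 50.8, 63.5 and 114 RPKM in YC libraries, 46.1, 75.2 and 92.0 RPKM in vehicle libraries and 63.1, 70.2 and 103 RPKM in D0 libraries (lowest, median, highest). All 3 ranges overlapped. The log2 fold change was -0.07 in YC against vehicle (95% confidence interval -0.44 to 0.30), -0.11 in vehicle against D0 (-0.48 to 0.26) and -0.18 in YC against D0 (-0.56 to 0.20). The YC against D0 difference was called without YC 6 and YC 7 (-0.40, limma adjusted p = 0.043) and with median-ratio scaling (-0.52, limma adjusted p = 0.014). Macrophages express ferroportin strongly, and the 12 Kupffer cell and macrophage markers summed to 443 to 1093 RPKM in YC libraries, 620 to 2112 RPKM in vehicle libraries and 178 to 360 RPKM in D0 libraries. Their part in the ferroportin values was not tested.

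**Figure D3:**
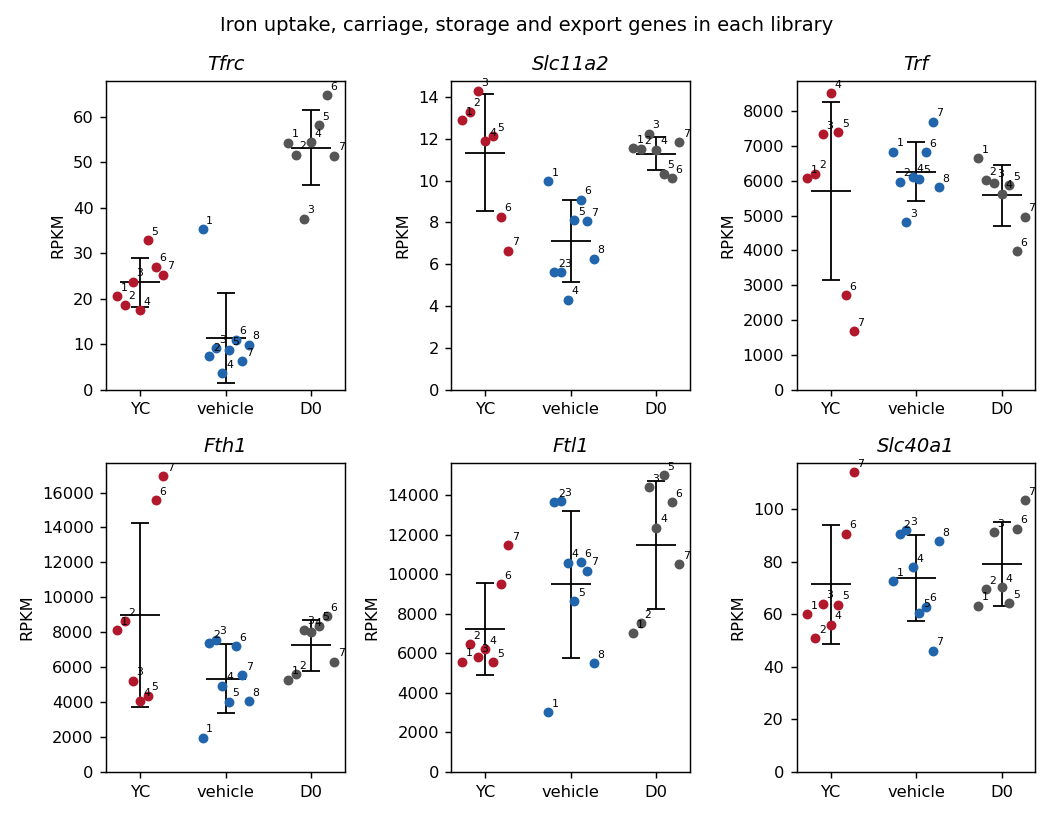
RPKM (y axis) of Tfrc, Slc11a2, Trf, Fth1, Ftl1 and Slc40a1 in each library of the YC (red, n = 7), vehicle (blue, n = 8) and D0 (grey, n = 7) groups; points are libraries with their replicate numbers, and bars are the mean ± SD. In Tfrc the vehicle libraries other than vehicle 1 sit below all YC libraries, which sit below all D0 libraries.

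**Figure D4:**
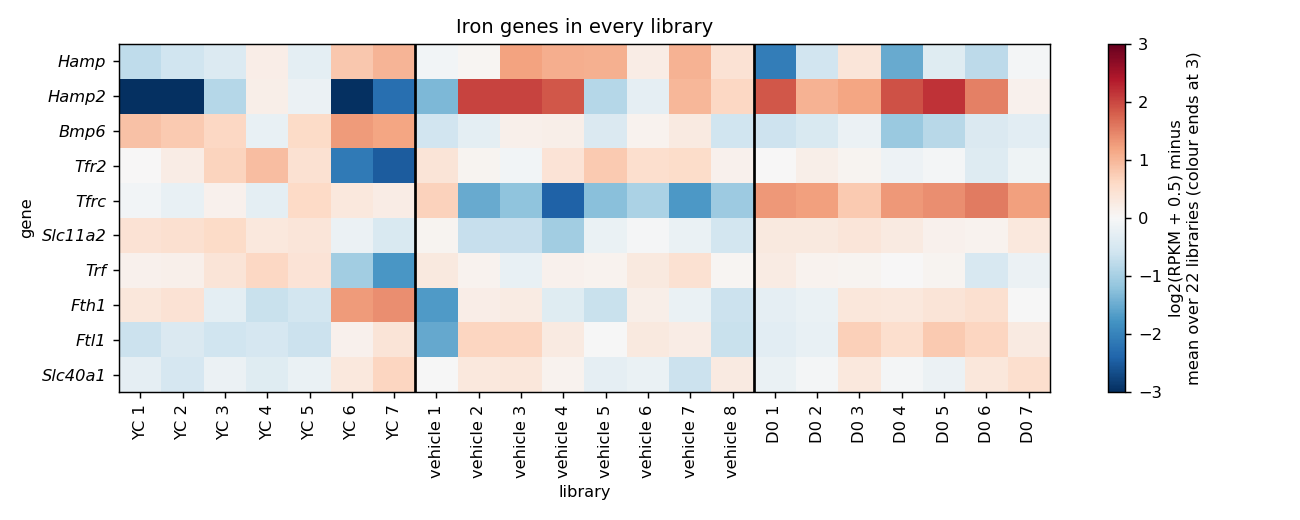
Level of the 9 iron genes and Hamp2 (rows) in each of the 22 libraries (columns, YC left, vehicle middle, D0 right), as log2(RPKM + 0.5) minus the mean of the gene over all libraries; red is above and blue below that mean. YC 6 and YC 7 share low Tfr2 and Trf with high Fth1 and Bmp6.

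Together the 9 genes took 3.54 to 5.43% of all RPKM in YC libraries, 2.54 to 4.67% in vehicle libraries and 3.68 to 5.39% in D0 libraries. Within a library the genes spanned a wide range, with Bmp6, Slc11a2 and Tfrc the least abundant per length in most libraries and Trf and ferritin the most abundant.

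Of 63 other iron genes in the table, 61 were tested, in 4 lists by role. In YC against vehicle livers 30 were higher and 2 lower, a share of 52.5% against 50.7% of all genes, with a median log2 fold change of 0.40 beside 0.31 over all genes. With median-ratio scaling these counts were 9 higher and 11 lower, and with quantile normalization 10 and 6, so the balance of directions depends on scaling. In vehicle against D0 livers 17 were higher and 20 lower (60.7% against 58.1%, median 0.02). In YC against D0 livers 23 were higher and 5 lower (45.9% against 53.4%, median 0.23), and with median-ratio scaling 15 and 15.

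Of 21 hepcidin regulators tested, 11 were called in YC against vehicle livers, all higher with RPKM as deposited, but median-ratio scaling called 2, both lower, and quantile normalization 1 in each direction. The 11 included the BMP receptor Acvr1 at 0.53 (limma adjusted p = 0.00055), the BMP signal transducer Smad1 at 0.52 (limma adjusted p = 0.0011) and the protease Furin at 0.89 (limma adjusted p = 0.0018). With median-ratio scaling these were 0.21, 0.20 and 0.54, with limma adjusted p of 0.078, 0.17 and 0.056. In libraries with Y-linked signal only, Smad1 was at 0.42 and not called (limma adjusted p = 0.0525). Fgl1, the most abundant regulator not called, was at 0.52 (limma adjusted p = 0.14) with all libraries. It was called higher without vehicle 1 (0.78, limma adjusted p = 0.0042), without YC 6 and YC 7 (0.83, limma adjusted p = 0.021) and with array weights (0.98, limma adjusted p = 0.00016). Between vehicle and D0 livers 3 were higher and 7 lower, among them hemojuvelin (listed as Hfe2) at 1.16 and the SMAD target Atoh8 at 1.33, both higher, and the receptor Acvr2a at -1.40, lower. Between YC and D0 livers 5 were higher and 2 lower, with Hfe2 at 1.49, Atoh8 at 1.27 and Fkbp1a, which binds BMP type I receptors, at 0.97, while median-ratio scaling gave 3 higher and 6 lower.

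Of 19 transport and trafficking genes, 10 were higher and 1 lower in YC than in vehicle livers, against 4 and 4 with median-ratio scaling. Lcn2, which binds iron-carrying siderophores and is an acute phase protein, averaged 345 ± 166 RPKM with YC and 80.5 ± 81.5 RPKM with vehicle (SD, n = 7 and 8), and the difference of 2.35 on the log2 scale was called (limma adjusted p = 5.1e-05). Without vehicle 1 the vehicle mean was 53.1 ± 26.9 RPKM (SD, n = 7). It was also higher in vehicle than in D0 livers (3.61) and in YC than in D0 livers (5.96), where D0 livers averaged 4.57 ± 1.42 RPKM (SD, n = 7). Ncoa4, the ferritin autophagy receptor, was higher in YC than in vehicle livers at 0.88, a call lost with median-ratio scaling (0.54, limma adjusted p = 0.073). That call was also lost with quantile normalization (0.56, limma adjusted p = 0.060) and in libraries with Y-linked signal only (0.72, limma adjusted p = 0.088). Between vehicle and D0 livers 8 were higher and 3 lower, with the mitochondrial importer Slc25a37 at -1.23. Between YC and D0 livers 11 were higher and 1 lower, with the lysosomal channel Mcoln1 at 0.86 and lactoferrin (Ltf), low in D0 livers, at 3.11. Cp, the ferroxidase ceruloplasmin, was the most abundant gene of this list that was not called, in each of the 3 comparisons (-0.17, 0.26 and 0.09), although with median-ratio scaling it was called lower in YC than in vehicle livers (-0.52, limma adjusted p = 0.042).

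Of 6 iron and oxygen sensing genes, YC livers were higher than vehicle livers in 4, against 1 higher and 1 lower with median-ratio scaling. They were the prolyl hydroxylase Egln3 at 1.15, Epas1 (HIF2A) at 0.49, Fbxl5, which marks iron regulatory protein 2 for degradation, at 0.36, and Ireb2, named for this comparison after its value was seen, at 0.54. Median-ratio scaling put Epas1 at 0.15 and Fbxl5 at 0.021, neither called. In vehicle against D0 livers 1 was higher and 4 lower. Ireb2, which encodes iron regulatory protein 2, was lower in vehicle livers at -0.83 (limma adjusted p = 0.00079), and Epas1 and Egln1 were lower at -0.42 and -0.41. In YC against D0 livers 2 were higher, Egln3 at 0.74 (0.40 and not called with median-ratio scaling) and Fbxl5 at 0.66, and Egln1 was lower at -0.60. Aco1, which encodes iron regulatory protein 1, was not called in YC against vehicle (0.21) or in YC against D0 (-0.08). The first was called with equal total RPKM (0.31, limma adjusted p = 0.038), with array weights (0.24, limma adjusted p = 0.030), without YC 7 (0.27, limma adjusted p = 0.036) and without YC 6 and YC 7 (0.30, limma adjusted p = 0.026). The second was called lower with median-ratio scaling (-0.42, limma adjusted p = 0.013), where the first was at -0.14.

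Of 15 heme and hemoglobin genes, 5 were higher and 1 lower in YC than in vehicle livers, against 4 and 4 with median-ratio scaling. The lower gene was Hpx, named after its value was seen, at -0.98 (limma adjusted p = 0.0016). Its ranges did not overlap, where 0.558% of all genes were lower in this way. In vehicle against D0 livers Hpx was higher at 1.21 (limma adjusted p = 0.00014). Hmox1, heme oxygenase, which frees iron from heme, averaged 494 ± 184 RPKM with YC and 92.3 ± 35.9 RPKM with vehicle (SD, n = 7 and 8), with ranges that did not overlap, where 7.08% of all genes had such ranges (6.52% higher). The log2 fold change was 2.42 (SE 0.27, limma adjusted p = 6.6e-07). D0 livers averaged 883 ± 74.3 RPKM (SD, n = 7), and Hmox1 was lower in vehicle livers at -3.36 and lower in YC livers at -0.95. The heme transporter Slc48a1 was higher in YC than in vehicle livers at 1.45 and lower in vehicle than in D0 livers at -1.46, and the exporter Abcg2 was higher in YC than in vehicle livers at 1.00. Hmox2 was higher than in D0 livers in both vehicle (0.81) and YC livers (0.77), and the hemoglobin scavenger haptoglobin (Hp) was higher in YC than in D0 livers at 1.02. Hmox1 is also one of the 10 NRF2 targets described with ferritin, of which 9 were called higher in YC against vehicle and 9 lower in vehicle against D0, and their part in this result was not tested.

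**Figure D5:**
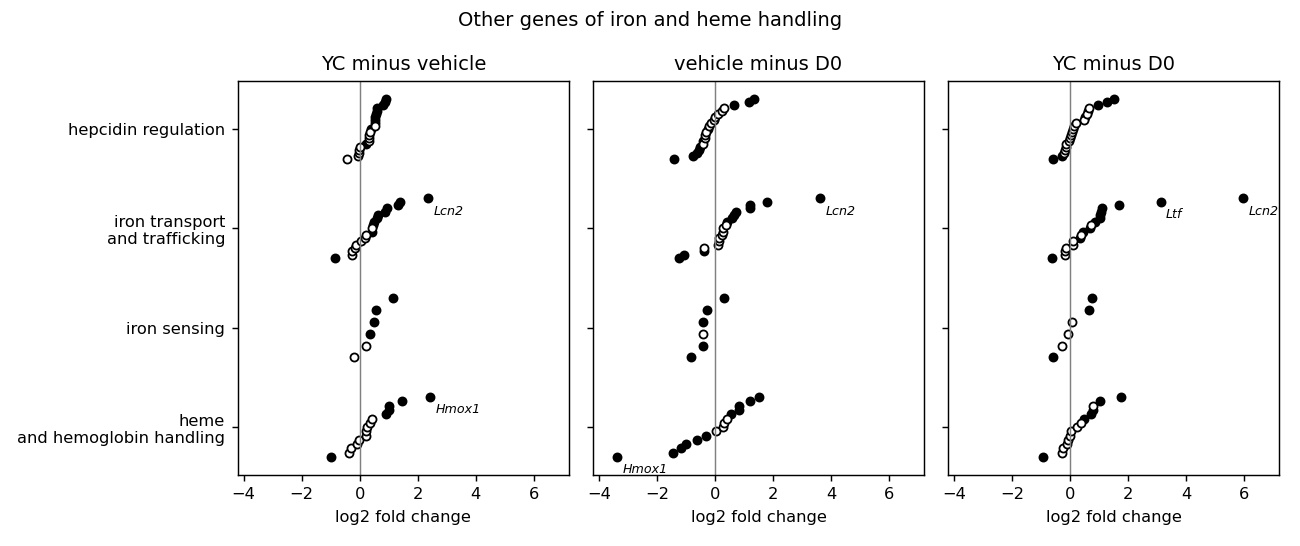
Log2 fold change (x axis, tested on log2(RPKM + 0.5)) of the 61 other iron genes tested, as points in 4 role lists (rows) for 3 comparisons; filled points are genes called at an adjusted p under 0.05, and genes beyond 2 are named. Hmox1 lies at 2.42 in YC minus vehicle and at -3.36 in vehicle minus D0, and Lcn2 at 5.96 in YC minus D0.

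Over the 22 libraries and 7137 genes averaging 5 RPKM or more, the genes most like Hamp in log2 level were Pigyl (Pearson r = 0.88), Hagh (0.87) and Rab29 (0.86). Those most like Tfrc were Rbbp6 (0.96), Depdc7 (0.96) and Ept1 (0.95). These values are descriptions, since the libraries share their group differences.

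Hamp was set against Bmp6, Id1, Smad7, Tfr2, Tfrc, Saa1 and Fah across the libraries of each group separately, 21 relations in all. None passed the Benjamini-Hochberg adjustment over the 21 (smallest adjusted p = 0.21 for r and 0.48 for rho, exact permutation test). Before adjustment 4 passed by Pearson r, all in YC livers (n = 7), and 2 by Spearman rho, Smad7 in YC livers and Id1 in vehicle livers. For Smad7, the inhibitory SMAD, Pearson r was 0.86 (exact permutation p = 0.011) and Spearman rho 0.82 (exact permutation p = 0.034), and r was 0.72 without YC 2 and YC 7. For Id1, a SMAD target, r was 0.80 (exact permutation p = 0.040) and rho 0.50 (exact permutation p = 0.27). For Tfr2, r was -0.80 (exact permutation p = 0.047) and rho -0.32 (exact permutation p = 0.50). For Saa1, an acute phase gene, r was -0.87 (exact permutation p = 0.035) and rho -0.39 (exact permutation p = 0.40). Without YC 6 and YC 7 these were -0.37 for Id1, 0.92 for Tfr2 and 0.46 for Saa1, so these 3 rest on those libraries. Smad7 was not set against Hamp without YC 6 and YC 7 together, so whether its relation rests on them was not tested. For Id1 in vehicle livers (n = 8), r was 0.63 (exact permutation p = 0.099) and rho 0.74 (exact permutation p = 0.046), and r was 0.23 without vehicle 1 and vehicle 3. The 9 acute phase genes summed to 3387 to 9527 RPKM in YC libraries, 3700 to 8373 RPKM in vehicle libraries and 2981 to 3958 RPKM in D0 libraries, and the 2 lowest of the YC group were YC 6 and YC 7.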

How the data were processed

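The authors deposited 1 table of RPKM values with 18716 rows and 22 library columns, and 0 columns were left without a sample. Per the submitters' processing notes, mm10 was used with TopHat 1.4.1 and Cufflinks 1.3.0. The annotation, the filters and any use of strand: not given in the sources used here. Of the row names, 27 were symbols turned into dates and 2 were repeated. Depth was estimated from the steps of low RPKM values. Too few values came out as whole reads to run a count test. The closest pair, YC 1 and YC 2, shared 0.0319% of values, and all 22 were treated as separate libraries.

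The 12537 genes reaching 0.5 RPKM in 7 or more libraries were fitted as log2(RPKM + 0.5) with limma 3.58.1 (trend and robust, statmod 1.5.0, R 4.3.3), all 22 libraries in 1 model. P-values were two-sided. Fold changes on this scale understate those of low genes. The fit was tested on simulated data. Python 3.11.15 was used with scipy 1.17.1, numpy 2.4.6, matplotlib 3.10.9 and pandas 2.3.3. Positions come from GENCODE M21.

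The members and lists were chosen with earlier results of these data known. Named besides the 9 members, Hamp2 and Fah were, per comparison and list, up to 3 called genes with the smallest adjusted p (mean of at least 5 RPKM in 1 group), the most abundant gene not called, and the 3 genes most like Hamp and Tfrc. Some genes that this rule names are not reported here. Alternatives were pseudocounts, filters, scalings, library weights, a replicate block and libraries left out.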

Additional observations from a re-analysis of the deposited data

Results flagged for a closer look

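In 30 sets of a gene and a group, the gap between the lowest or highest library and its neighbour was compared with the range of the group, both on the log2(RPKM + 0.5) scale, and 2 were past the 95% critical value. Chance flags about 1 in 20 such sets. Fth1 in vehicle 1 was the lowest of its group at 1956 RPKM, with a gap of 0.535 of the log2 range against a critical value of 0.526. Tfrc in D0 3 was the lowest of its group at 37.6 RPKM, with a gap of 0.578 of the log2 range against a critical value of 0.568. Measured on RPKM itself, a choice made after seeing the data, these gaps were 0.370 and 0.512 of the range, below their critical values. On that scale 1 set was past its value, Tfrc in vehicle 1, the highest of its group at 35.4 RPKM, with a gap of 0.767.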

How the results depend on the processing

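Calls of Bmp6 and Hamp2 in YC against vehicle and against D0, of Tfrc in both comparisons with D0, and of Hamp and Slc11a2 in vehicle against D0 held, in direction and in passing the threshold, under every setting run. The count of the 9 genes called in YC against vehicle (3) was 5 with array weights and 5 without vehicle 1, YC 6 and YC 7, a choice made after seeing the data, and 3 to 5 with single libraries left out, the 5 being without YC 4. In vehicle against D0 (3) it was 5 with only the 2 groups compared, 5 without YC 6 and YC 7 and 5 without vehicle 1, YC 6 and YC 7 (3 to 4 with single libraries left out). In YC against D0 (2) it was 4 with median-ratio scaling, quantile normalization, array weights and the replicate block, 6 without YC 6 and YC 7 and 6 without vehicle 1, YC 6 and YC 7 (2 to 3 with single libraries left out). Other iron genes called in YC against vehicle (32) were 20 (median-ratio scaling) and 16 (quantile normalization). With a mean of at least 5 RPKM, which tests fewer genes (7279), calls over the table were 3816 in YC against vehicle, 4061 in vehicle against D0 and 3560 in YC against D0, in place of 6357, 7278 and 6699. For the other changes the cause was not tested. These log2 fold changes turned sign, none of them called with all libraries. In YC against vehicle, without YC 6 and YC 7 and without vehicle 1 as well, Tfr2 was 0.11 and 0.12, Trf 0.18 and 0.20, and Cp 0.044 and 0.20; with Y-bearing libraries only, Trf was 0.068 and Cp 0.0013; Cp was 0.075 with array weights and Slc40a1 0.036 with equal total RPKM (-0.19 to 0.0028 with single libraries left out). With median-ratio scaling Aco1 was -0.14 and Hp -0.14. In vehicle against D0, Fgl1 was -0.12 with array weights and -0.15 in each setting without vehicle 1 (-0.15 to 0.26 with single libraries left out), and Hebp1 was -0.068 with quantile normalization, -0.082 with equal total RPKM and -0.0098 with array weights (-0.027 to 0.065 with single libraries left out). In YC against D0, with array weights, Tfr2 was 0.23, Trf 0.19, Fth1 -0.048 and Slc11a2 0.17. Without YC 6 and YC 7, with or without vehicle 1, Tfr2 was 0.52, Trf 0.35, Fth1 -0.30, Slc11a2 0.18 and Aco1 0.0076. Trf was 0.059 with quantile normalization, and with median-ratio scaling Fth1 was -0.22, Cp -0.26 and Hpx -0.11. Hpx in that comparison was called higher without YC 6 and YC 7 (0.68, limma adjusted p = 0.00021) and with array weights (0.51, limma adjusted p = 0.0031), and Cp without vehicle 1, YC 6 and YC 7 (0.30, limma adjusted p = 0.036). With single libraries left out Tfr2 was -0.47 to 0.095, Trf -0.27 to 0.12, Fth1 -0.060 to 0.28 and Slc11a2 -0.092 to 0.082. The deviations of same-numbered libraries of different groups gave 21 correlations of -0.39 to 0.23, 5 above 0.1. They cannot decide whether the numbers pair samples, since differently numbered libraries were not set beside them. With the replicate block Bmp6 in vehicle against D0 was called (0.48, limma adjusted p = 0.024). Libraries with Y-linked signal are absent in D0, so that setting could not be run for D0. Depth limits Bmp6 most among the members.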

Other observations

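Ratios within a library do not change with the scaling of libraries, and 2 of them were tested after their values were seen, with exact two-sided permutation tests over libraries and Benjamini-Hochberg adjustment over 6 tests. The ratio of light to heavy ferritin mRNA, Ftl1 over Fth1, was 0.61, 0.747 and 1.53 in YC libraries (lowest, median, highest), 1.35, 1.83 and 2.14 in vehicle libraries and 1.33, 1.54 and 1.79 in D0 libraries. YC 4, at 1.53, lay inside the ranges of both other groups. YC 3 and YC 5 were at 1.11 and 1.27, and the remaining YC libraries at 0.61 to 0.747. Those remaining libraries, YC 1, YC 2, YC 6 and YC 7, had Fah below every vehicle library, at 31.5 to 128 RPKM. Fah in YC 3, YC 4 and YC 5 was inside the vehicle range, at 290 to 407 RPKM. The part of Fah level in this ratio was not tested. The ratio was lower in YC than in vehicle livers, with a log2 difference of -0.96 (exact permutation p = 0.00047, adjusted p = 0.0017) and lower than in D0 livers at -0.80 (exact permutation p = 0.0023, adjusted p = 0.0047). Leaving out any 1 library, or YC 6 and YC 7 together, kept both below a p of 0.05. Vehicle against D0 was at 0.17 (exact permutation p = 0.16). Both mRNAs carry a 5′ UTR hairpin and have pseudogenes that may share their reads.

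The ratio of Hamp over Hamp2 was 3.63, 38.7 and 66.1 in YC libraries (lowest, median, highest), 0.991, 3.74 and 14.9 in vehicle libraries and 0.259, 0.808 and 3.46 in D0 libraries. The YC libraries were split: YC 3, YC 4 and YC 5, at 3.63 to 5.40, lay inside the vehicle range. YC 1, YC 2, YC 6 and YC 7, at 38.7 to 66.1, lay above it. The same split was seen in Fah. YC 3, YC 4 and YC 5 had 290, 407 and 291 RPKM of Fah, inside the vehicle range. YC 1, YC 2, YC 6 and YC 7 had 105, 128, 41.3 and 31.5 RPKM, below it. The part of Fah level in the ratio was not tested. The Hamp over Hamp2 ratio was tested over whole groups. It was higher in YC than in vehicle livers by a log2 difference of 2.15 (exact permutation p = 0.026, adjusted p = 0.031), in vehicle than in D0 livers by 2.11 (exact permutation p = 0.0089, adjusted p = 0.013) and in YC than in D0 livers by 4.25 (exact permutation p = 0.00058, adjusted p = 0.0017). The YC against vehicle difference had an exact permutation p between 0.012 and 0.11 when libraries were left out, and 4 of 16 such settings were past 0.05.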
